A study of Mus musculus with 6 samples.

Results

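Heat shock proteins and their DNAJ cochaperones were followed in glomeruli, the filtering tufts of the kidney, taken from diabetic mice with and without proteinase 3. The genes were chosen by symbol alone, as those named Hspa, Hspb, Hspd, Hspe, Hsph, Hsp90, Dnaja, Dnajb or Dnajc with a number, and by a mean of at least 1 FPKM (sequenced fragments scaled by transcript length and library size) over all 6 libraries. This gave 63 genes, 24 heat shock proteins and 39 DNAJ proteins, of 12388 genes at that level and 18822 with a value. The 3 PR3_KO libraries came from mice with a knockout of PR3, the neutrophil protease encoded by Prtn3, and the 3 WT libraries from control mice. All 6 shared the C57BL/6J strain and diabetic kidney disease. Age, sex, the way diabetes was brought about, the cell type in which the knockout acts and any pooling of animals were not given in the labels. They also do not state that each library is a separate animal, so p-values cover only the spread between these libraries, which may be technical.

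Heat shock proteins are molecular chaperones that bind unfolded or partly folded proteins. HSP70 proteins work in cycles of ATP hydrolysis, in which DNAJ proteins (also called HSP40) deliver the client and stimulate the ATPase, and nucleotide exchange factors, among them the HSP110 proteins, reset the cycle. HSP90 proteins receive many clients from HSP70, small heat shock proteins hold unfolded clients without ATP, and Hspd1 with Hspe1 forms the folding chamber of mitochondria. Heat shock factor 1 (HSF1) drives many of the cytosolic genes under stress from heat shock elements, which are inverted repeats of short GAA units, while chaperones of the endoplasmic reticulum (ER) are induced by the unfolded protein response from the ER stress element. In the kidney, HSP27 (Hspb1) is known to act on actin filaments and has been studied in podocytes, the epithelial cells of the filter.

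Promoter stretches are shown for members that carry these elements and whose levels are described below. Sequences are from RefSeq, build GRCm38.p6, written 5′ to 3′ on the strand of the gene, and end at the base before an annotated start. For Hspb6 this is the more downstream of its annotated starts. Capitals mark matches to the heat shock element GAANNTTC or TTCNNGAA in the first 5 lines and to the ER stress element in the others. The positions are chr17:34972157-34972306 on the minus strand for Hspa1a, chr17:34959239-34959388 (minus) for Hspa1b, chr5:135887769-135887918 (plus) for Hspb1, chr7:30553151-30553300 (plus) for Hspb6, chr1:55087998-55088147 (plus) for Hspe1, chr10:86705445-86705694 (minus) for Hsp90b1 and chr2:34771940-34772089 (plus) for Hspa5.
Hspa1a: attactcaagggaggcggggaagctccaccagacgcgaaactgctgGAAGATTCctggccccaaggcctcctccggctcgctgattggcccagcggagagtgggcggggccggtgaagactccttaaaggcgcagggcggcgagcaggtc
Hspa1b: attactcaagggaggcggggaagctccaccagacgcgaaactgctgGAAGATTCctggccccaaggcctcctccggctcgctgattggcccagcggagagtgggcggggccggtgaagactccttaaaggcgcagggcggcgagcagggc
Hspb1: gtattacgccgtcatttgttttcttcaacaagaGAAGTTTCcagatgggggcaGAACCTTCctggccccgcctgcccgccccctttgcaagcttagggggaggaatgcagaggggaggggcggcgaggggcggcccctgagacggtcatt
Hspb6: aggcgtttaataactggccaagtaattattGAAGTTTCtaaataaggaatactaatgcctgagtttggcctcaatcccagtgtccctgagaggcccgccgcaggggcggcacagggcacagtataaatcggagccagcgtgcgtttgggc
Hspe1: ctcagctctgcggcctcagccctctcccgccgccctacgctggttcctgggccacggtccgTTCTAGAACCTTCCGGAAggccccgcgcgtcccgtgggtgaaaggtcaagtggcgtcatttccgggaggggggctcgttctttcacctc
Hsp90b1: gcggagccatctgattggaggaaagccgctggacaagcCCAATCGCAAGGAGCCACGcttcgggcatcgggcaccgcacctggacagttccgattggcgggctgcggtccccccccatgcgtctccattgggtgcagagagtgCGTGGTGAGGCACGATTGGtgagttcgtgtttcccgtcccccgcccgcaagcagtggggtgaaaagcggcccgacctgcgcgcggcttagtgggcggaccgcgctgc
Hspa5: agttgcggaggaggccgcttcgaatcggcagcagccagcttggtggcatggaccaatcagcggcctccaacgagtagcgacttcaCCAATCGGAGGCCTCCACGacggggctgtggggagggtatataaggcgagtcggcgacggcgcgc

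Hspa1a and Hspa1b, neighbouring copies of the inducible HSP70 gene, were identical at 149 of 150 bases in these stretches, and each held 1 match. Hspb1 held 2 separate matches. In Hspe1 the 3 matches ran into each other, and its neighbour Hspd1, which is transcribed from the opposite strand, shares this element. Hsp90b1 held 2 ER stress elements and Hspa5 held 1. Of the 63 members, 50 had at least 1 RefSeq window of 300 bases (250 before a start and 50 from it on). The others, Hspa8, Hsp90aa1 and Hsp90ab1 among them, had no window and were not searched. Among the 50, 14 (28.0%) held the 2-unit heat shock element on either strand in at least 1 window. This compares with 1415 of 9940 tested genes with a window (14.24%). An element extended to 3 alternating units, whose matches overlap those of the 2-unit form, was found in 4 of 50 members (8.0%) and 54 of 9940 genes (0.54%). The ER stress element, searched as CCAAT and CCACG with 9 bases between them on both strands, was found in 3 of 50 members (6.0%) and 18 of 9940 genes (0.18%). Those 3 members were Dnajc3, Hsp90b1 and Hspa5, all of the ER.

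**Figure D1:**
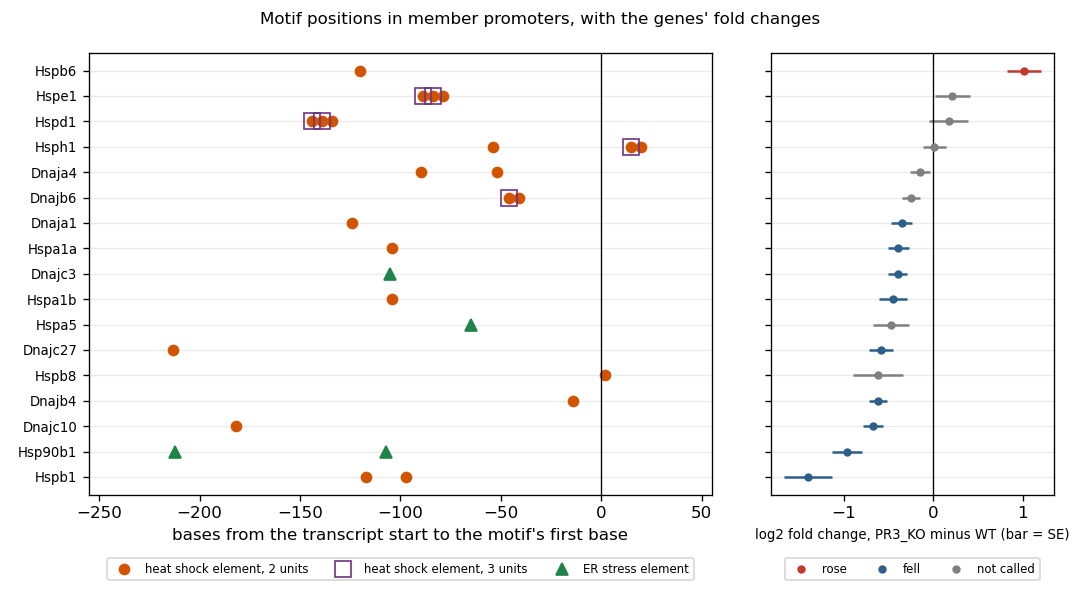
Left, first base of each heat shock element (circles, squares around those of 3 units) and ER stress element (triangles) in the RefSeq promoter windows of the 17 members that hold one, in bases from the transcript start. Right, the log2 fold change of the same genes, PR3_KO minus WT, with limma's SE as bars: Hspb6 at the top rose (1.01), Hspb1 at the bottom fell (-1.40), and members with an element lie between them.

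The libraries differed in more than these genes. Summed FPKM was 566772 to 604697 in PR3_KO and 494316 to 543564 in WT, 16473 to 16965 genes were above 0, and the depth was near 15200000 fragments (13300000 in WT 1), a rough estimate from the smallest values of olfactory receptor genes. Prtn3, the targeted gene, had values of 0.14, 0 and 0.07 FPKM in PR3_KO 1 to 3, against 0.46, 0.21 and 0.22 FPKM in WT 1 to 3, a few fragments each, so that it checks the labels weakly. Of 20 proximal tubule markers 16 rose and 0 fell, and their mean log2(FPKM + 1) was 8.79 to 8.91 in PR3_KO and 7.35 to 8.15 in WT. All 16 endothelial markers fell (5.41 to 5.88 in PR3_KO, 6.91 to 7.24 in WT), as did all 14 myeloid markers (2.49 to 3.15 in PR3_KO, 4.93 to 6.04 in WT). Of 15 podocyte markers 8 fell and 0 rose (4.04 to 4.55 in PR3_KO, 4.64 to 5.38 in WT), 4 without PR3_KO 1 and 5 without PR3_KO 3. Of 10 mesangial and smooth muscle markers 5 fell and 0 rose (3.20 to 3.67 in PR3_KO, 3.78 to 4.52 in WT), 3 without PR3_KO 3. Of 10 markers of the loop, distal tubule and collecting duct 4 fell and 0 rose (5.30 to 5.71 in PR3_KO, 5.89 to 6.08 in WT), 1 without PR3_KO 1, 2 without PR3_KO 3 and 1 without WT 2. After median-of-ratios scaling, described below, 0 of these 10, 5 of the podocyte and 3 of the mesangial markers fell, and the proximal tubule (18 rose), endothelial (16 fell) and myeloid (14 fell) counts were as high or higher. Over all tested genes 11.7% rose and 41.1% fell before scaling, and 23.8% rose and 23.7% fell after it. Of 8 skeletal and cardiac muscle markers 1, Tnnc1, reached 1 FPKM and did not pass the test. The podocyte marker Nphs1 and the endothelial marker Pecam1, which is not limited to the glomerulus, were measured in both genotypes. In such bulk samples, fewer cells of a type and less RNA per cell cannot be told apart, and the part of these shifts in the results below was not tested.

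Before scaling, the shares of chaperone genes that rose and fell were near those of all genes. After scaling both shares were below those of all genes. Single members changed in both directions. With limma on log2(FPKM + 1) and Benjamini-Hochberg adjusted p under 0.05 over all 12388 genes, 8 of 63 members rose in PR3_KO (12.7%, against 11.7% of all genes) and 27 fell (42.9%, against 41.1%). The median log2 fold change, PR3_KO minus WT, was -0.25 for the members and -0.26 for all genes. After median-of-ratios scaling of the libraries, which sets the median of all genes near 0 and so shifts every change upward, 10 members rose (15.9%, against 23.8% of all genes) and 10 fell (15.9%, against 23.7%), with a median of -0.01. In 9 members all PR3_KO libraries lay above all WT libraries (16.0% of all genes did so) and in 30 all lay below (49.1% of all genes). The number that fell was 15 without PR3_KO 1, and the number that rose was 5 without PR3_KO 3. Over all 12388 genes, 917 rose and 3837 fell without PR3_KO 1, and 943 rose and 4128 fell without PR3_KO 3. With all libraries 1454 rose and 5091 fell. Counts with a library left out are to be read beside these lower numbers.

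The calls that did not depend on scaling or on a single library were 15 in number. Hspa8, Hspb6, Dnajc12, Dnajc13 and Dnajc30 rose, and Hsp90b1, Hspa12b, Hspb1, Dnajb4, Dnajb5, Dnajc8, Dnajc10, Dnajc14, Dnajc24 and Dnajc27 fell, in both scalings and with each library left out in turn from the unscaled data. How many of all genes met these conditions was not counted. Another 17 members fell before scaling and did not pass after it, where they ran from -0.37 (Hsp90aa1) to -0.03 (Dnajc1). Over all 12388 genes the number that fell was 5091 before scaling and 2931 after it. The scaling turned the sign of 12 members, of which 0 were past the threshold either way. Of the 63 members, 4 changed by at least 1 on the log2 scale and passed the test, a smaller share than the 1379 of 12388 genes that did. These 4 were Hspa12b, Hspb1, Hspb6 and Dnajc12.

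**Figure D2:**
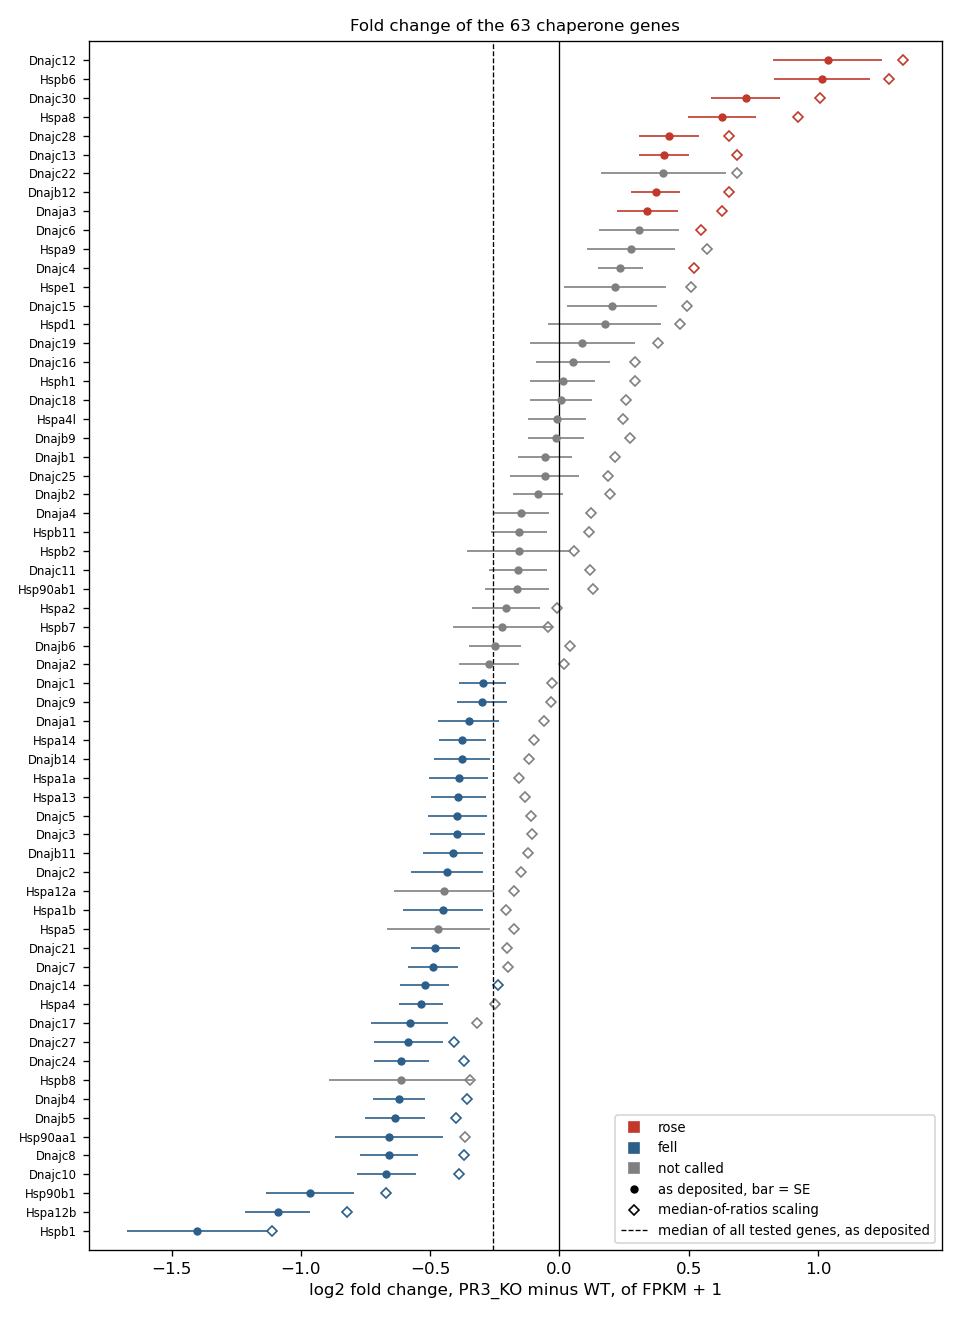
Log2 fold change of each of the 63 members, PR3_KO minus WT on log2(FPKM + 1), sorted by size, as filled circles with limma's SE as bars, and as open diamonds with median-of-ratios scaling; colours give the call. The dashed line is the unscaled median of all tested genes (-0.26), around which most members lie, with Dnajc12 (1.04) and Hspb6 (1.01) at the high end and Hspa12b (-1.09) and Hspb1 (-1.40) at the low end.

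Of the 3 HSP90 genes 2 fell, and 1, Hsp90b1, passed after scaling (41.1% of all genes fell, and 23.7% after scaling). Hsp90b1 encodes GRP94, the HSP90 of the ER, and had 124.89, 176.89 and 133.49 FPKM in PR3_KO 1, 2 and 3, against 265.90, 326.17 and 254.76 FPKM in WT 1, 2 and 3. Every PR3_KO library lay well below every WT library. PR3_KO minus WT was -0.96 on the log2 scale (SE 0.17, limma adjusted p = 0.00302) and -0.67 after scaling (limma adjusted p = 0.0124). Hsp90aa1, the stress-inducible cytosolic form, had 111.85, 126.48 and 75.19 FPKM in PR3_KO libraries, against 163.26, 138.76 and 187.04 FPKM in WT libraries. The groups did not overlap, but PR3_KO 2 came close to WT 2. The log2 fold change was -0.66 (SE 0.21, limma adjusted p = 0.0291), and it did not pass after scaling (-0.37, limma adjusted p = 0.217), without PR3_KO 1, PR3_KO 3, WT 1 or WT 3 (limma adjusted p = 0.0549, 0.0828, 0.0618 and 0.0910), or when the replicate number was a block (limma adjusted p = 0.0519). Hsp90ab1, the constitutive cytosolic form, had 460.61, 504.81 and 435.55 FPKM in PR3_KO libraries, against 526.42, 538.69 and 503.57 FPKM in WT libraries. PR3_KO 2 reached the level of WT 3, and the log2 fold change of -0.16 (SE 0.12, limma adjusted p = 0.288) was 0.13 after scaling.

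Among the 13 HSP70 and HSP110 genes, 1 rose (7.69%, against 11.7% of all genes) and 6 fell (46.2%, against 41.1%). The number that fell was 3 without PR3_KO 1, and the median was -0.39. After scaling 1 rose and 1 fell (7.69% each, against 23.8% and 23.7% of all genes). The gene that rose was Hspa8, the constitutive cytosolic HSP70 that also strips the clathrin coat from vesicles, and it was the most abundant member. It had 1130.86, 1283.12 and 1168.15 FPKM in PR3_KO 1, 2 and 3, against 800.29, 776.14 and 738.47 FPKM in WT 1, 2 and 3. The lowest PR3_KO library was far above the highest WT library. On the log2 scale the difference was 0.63 (SE 0.13, limma adjusted p = 0.00586) and 0.92 after scaling (limma adjusted p = 0.00359), and it stayed between 0.58 and 0.67 when any 1 library was left out. The gene lies on chromosome 9 at 40801276 to 40805202 (GRCm38.p6).

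The inducible HSP70 genes were low in both genotypes. Hspa1a had 2.82, 3.28 and 3.27 FPKM in PR3_KO libraries, against 4.33, 4.83 and 4.05 FPKM in WT libraries. Hspa1b had 3.89, 4.33 and 3.46 FPKM in PR3_KO libraries, against 4.70, 7.21 and 5.34 FPKM in WT libraries. Both genes were lower in every PR3_KO library than in any WT library. The log2 fold changes were -0.39 for Hspa1a (limma adjusted p = 0.0226) and -0.45 for Hspa1b (limma adjusted p = 0.0401), and -0.16 and -0.21 after scaling, where neither passed (limma adjusted p = 0.197 and 0.235). Hspa1a did not pass without PR3_KO 1, PR3_KO 3 or WT 2 (limma adjusted p = 0.0796, 0.0518 and 0.0572), and Hspa1b did not pass without PR3_KO 1, PR3_KO 2, PR3_KO 3, WT 2 or WT 3 (limma adjusted p = 0.0923, 0.0526, 0.124, 0.0902 and 0.0671). The 2 genes are near-identical, so the split of reads between them is uncertain.

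The HSP70 genes of the ER and of mitochondria did not pass the test. Hspa5, which encodes BiP, the HSP70 of the ER, had 99.17, 167.40 and 149.39 FPKM in PR3_KO libraries, against 187.81, 206.50 and 170.76 FPKM in WT libraries. PR3_KO 1 was the lowest library and PR3_KO 2 came within a few FPKM of WT 3. The log2 fold change of -0.47 (SE 0.20) did not pass (limma adjusted p = 0.0787), but did without PR3_KO 2 (-0.62, limma adjusted p = 0.0443) and when the replicate number was a block (limma adjusted p = 0.0472). Hspa9, the HSP70 of mitochondria (mortalin), had 251.94, 218.65 and 230.79 FPKM in PR3_KO libraries, against 222.24, 150.42 and 213.32 FPKM in WT libraries. WT 2 was far below the other 5 libraries, and the log2 fold change was 0.28 (limma adjusted p = 0.197).

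Hspa12b, a distant HSP70 relative known from endothelial cells, changed most in this family. It had 6.19, 7.66 and 7.26 FPKM in PR3_KO libraries, against 14.86, 18.77 and 14.82 FPKM in WT libraries, so that no PR3_KO library came near a WT library. The log2 fold change was -1.09 (SE 0.13, limma adjusted p = 0.000866) and -0.82 after scaling (limma adjusted p = 0.00182). The 16 endothelial markers, all of which fell, had a median of -1.30, and their part in this was not tested. Its relative Hspa12a had 9.21 ± 2.11 FPKM in PR3_KO and 12.9 ± 2.93 FPKM in WT (SD, n = 3 each), with a log2 fold change of -0.45 (limma adjusted p = 0.0847; 0.0424 without PR3_KO 2 and 0.0202 with the block).

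The HSP110 proteins and the ribosome-bound HSP70 gave a mixed picture. Hspa4, an HSP110 exchange factor, had 26.72, 27.72 and 26.38 FPKM in PR3_KO libraries, against 39.85, 38.76 and 39.84 FPKM in WT libraries. The libraries of a genotype were within 2 FPKM of each other, and the log2 fold change was -0.54 (SE 0.08, limma adjusted p = 0.0019), or -0.25 after scaling (limma adjusted p = 0.0541). Hsph1, the HSP110 that rises with heat, had 17.60, 22.51 and 19.44 FPKM in PR3_KO libraries, against 22.40, 17.70 and 18.90 FPKM in WT libraries. The groups overlapped fully (log2 fold change 0.01, limma adjusted p = 0.939). Hspa14, part of a chaperone complex at the ribosome, had 12.98, 13.81 and 13.32 FPKM in PR3_KO libraries, against 16.39, 18.93 and 17.66 FPKM in WT libraries. It was lower in every PR3_KO library (log2 fold change -0.38, limma adjusted p = 0.0109), and after scaling it did not pass (-0.10). Hspa13, an HSP70 of microsomes, fell as well (-0.39, limma adjusted p = 0.0160), though not without PR3_KO 1 (limma adjusted p = 0.0571) or after scaling (-0.13). Hspa4l and Hspa2 were not called, at -0.01 and -0.21.

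**Figure D3:**
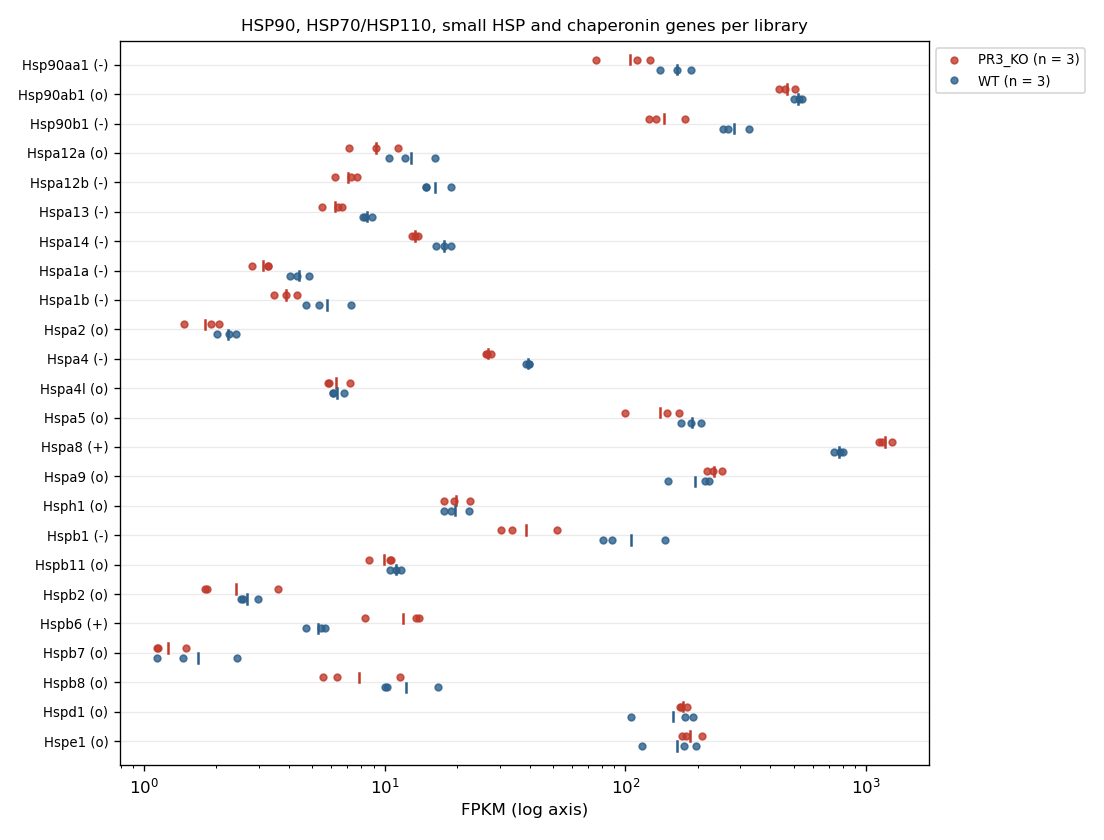
FPKM of the 24 heat shock protein genes in each library on a log10 axis, grouped by family, with PR3_KO above WT in each row, points for libraries and a vertical tick at the mean of 3. Signs beside the names give the call as deposited: Hspa8 and Hspb6 rose, and Hsp90b1, Hspa12b and Hspb1 are among the 9 that fell.

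Of the 6 small heat shock proteins, 1 rose and 1 fell (16.7% each, against 11.7% and 41.1% of all genes). Hspb1 (HSP27), which binds actin filaments and holds unfolded proteins, had 33.66, 52.19 and 30.49 FPKM in PR3_KO 1, 2 and 3, against 87.99, 146.53 and 80.38 FPKM in WT 1, 2 and 3. WT 2 was the highest library and PR3_KO 2 the highest of its group, and the groups did not overlap. This was a log2 fold change of -1.40 (SE 0.27, limma adjusted p = 0.00457) and -1.11 after scaling (limma adjusted p = 0.0101). Hspb6 (HSP20), a small heat shock protein best known from smooth and heart muscle, had 13.90, 8.29 and 13.54 FPKM in PR3_KO libraries, against 4.71, 5.44 and 5.65 FPKM in WT libraries. PR3_KO 2 was the lowest of its group and still above every WT library. This gave a log2 fold change of 1.01 (SE 0.19, limma adjusted p = 0.00352) and 1.27 after scaling (limma adjusted p = 0.00307). Of the skeletal and cardiac muscle markers, 7 of 8 were below 1 FPKM, and Tnnc1, the other, averaged 2.95 FPKM in PR3_KO and 1.73 FPKM in WT (log2 fold change 0.56, limma adjusted p = 0.117). Of 10 smooth muscle and mesangial markers 5 fell and 0 rose, and the part of muscle cells in the level of Hspb6 was not tested. Hspb8, which works with the cochaperone Bag3, had 7.84 ± 3.30 FPKM in PR3_KO and 12.3 ± 3.77 FPKM in WT (SD, n = 3 each) and did not pass (-0.61, limma adjusted p = 0.0979; 0.0165 without PR3_KO 2 and 0.00331 with the block, which bring the number that fell to 2). Hspb11, a part of the transport machinery of cilia, and the muscle genes Hspb2 and Hspb7 were not called, between -0.22 and -0.15.

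Hspb1, which fell, and Hspb6, which rose, each had a promoter window with the 2-unit heat shock element shown above. For Hspb6 this was the window of a downstream start, and the window of its upstream start (chr7:30552290-30552589) did not hold the element. The mitochondrial chaperonin pair, whose shared promoter held the longer element, was not called. Hspd1 (HSP60) had 180.37, 170.19 and 168.40 FPKM in PR3_KO libraries, against 191.59, 105.61 and 177.34 FPKM in WT libraries. Hspe1 (HSP10), its lid, had 207.20, 178.02 and 171.21 FPKM in PR3_KO libraries, against 174.74, 117.59 and 196.56 FPKM in WT libraries. Both genes were low in WT 2 and overlapped otherwise, with log2 fold changes of 0.17 (limma adjusted p = 0.515) and 0.21 (limma adjusted p = 0.382). The number of Hspe1 FPKM per Hspd1 FPKM was 1.07 ± 0.07 in PR3_KO and 1.04 ± 0.11 in WT (SD, n = 3 each). RefSeq lists 7 pseudogenes of Hspe1 and 5 of Hspd1, which can share reads with them.

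Of the 39 DNAJ genes, 6 rose (15.4%, against 11.7% of all genes) and 18 fell (46.2%, against 41.1%). After scaling these numbers were 8 and 7 (20.5% and 17.9%, against 23.8% and 23.7% of all genes). DNAJA proteins are the general cytosolic partners of HSP70, apart from the mitochondrial Dnaja3, and 1 of 4 rose and 1 fell. Dnaja1 had 49.46, 50.86 and 47.93 FPKM in PR3_KO libraries, against 67.16, 54.40 and 69.35 FPKM in WT libraries. WT 2 lay only a little above the PR3_KO libraries. The log2 fold change was -0.35 (limma adjusted p = 0.0365), -0.06 after scaling, and it did not pass without PR3_KO 1, PR3_KO 2, PR3_KO 3, WT 1 or WT 3 (limma adjusted p = 0.0917, 0.0772, 0.112, 0.0915 and 0.104). Dnaja3 had 50.43, 46.52 and 50.56 FPKM in PR3_KO libraries, against 42.80, 33.13 and 40.65 FPKM in WT libraries. The groups did not overlap, and WT 2 was lowest. Its log2 fold change was 0.34 (limma adjusted p = 0.0418) and 0.63 after scaling (limma adjusted p = 0.0104), but it did not pass without PR3_KO 1, PR3_KO 2, PR3_KO 3, WT 2 or WT 3 (limma adjusted p = 0.112, 0.0686, 0.119, 0.0823 and 0.0630). Dnaja2 and Dnaja4 were not called, at -0.27 and -0.15 as deposited and 0.02 and 0.12 after scaling.

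Among the 9 DNAJB genes, 1 rose (11.1%, against 11.7% of all genes) and 4 fell (44.4%, against 41.1%). The number that fell was 2 without PR3_KO 1, and after scaling 1 rose and 2 fell. Dnajb1, the heat-inducible partner of HSP70, had 11.13, 11.39 and 13.27 FPKM in PR3_KO libraries, against 11.48, 13.13 and 12.68 FPKM in WT libraries, and the groups overlapped (log2 fold change -0.06, limma adjusted p = 0.661). Its relatives Dnajb4 and Dnajb5 were both lower. Dnajb4 had 5.83, 5.85 and 5.70 FPKM in PR3_KO libraries, against 8.82, 9.10 and 10.45 FPKM in WT libraries. Dnajb5 had 2.74, 3.07 and 3.24 FPKM in PR3_KO libraries, against 5.42, 5.63 and 4.69 FPKM in WT libraries. Neither gene overlapped between genotypes. The log2 fold changes were -0.62 for Dnajb4 and -0.64 for Dnajb5 (limma adjusted p = 0.00225 and 0.0033), and -0.36 and -0.40 after scaling (limma adjusted p = 0.0235 and 0.0131). Dnajb6, the most abundant of the class and a suppressor of protein aggregation, had 54.66, 47.82 and 50.67 FPKM in PR3_KO libraries, against 59.42, 58.49 and 64.71 FPKM in WT libraries. It was lower in every PR3_KO library without passing (-0.25, limma adjusted p = 0.0673), and its sign turned with scaling (0.04).

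The DNAJB proteins of the ER divided. Dnajb11 (ERdj3), a soluble partner of BiP, had 41.60, 49.90 and 47.77 FPKM in PR3_KO libraries, against 68.14, 58.04 and 59.98 FPKM in WT libraries. It was lower in every PR3_KO library (log2 fold change -0.41, limma adjusted p = 0.0179), but did not pass without PR3_KO 1 (limma adjusted p = 0.0702) or after scaling (-0.12, limma adjusted p = 0.422). Dnajb12, anchored in the ER membrane, had 31.00, 30.78 and 34.21 FPKM in PR3_KO libraries, against 26.36, 24.05 and 23.12 FPKM in WT libraries. It was higher in every PR3_KO library (log2 fold change of 0.37 with an SE of 0.10, limma adjusted p = 0.0134), and passed after scaling (0.66, limma adjusted p = 0.00290) but not without PR3_KO 3 (limma adjusted p = 0.0580). Dnajb14, its membrane-anchored relative, was lower, at 5.84 ± 0.61 FPKM in PR3_KO and 7.85 ± 0.40 FPKM in WT (SD, n = 3 each). Its log2 fold change of -0.38 (limma adjusted p = 0.0206) was not past the threshold without PR3_KO 1 or WT 3 (limma adjusted p = 0.0712 and 0.0595) or after scaling (-0.12). Dnajb9 (ERdj4), a target of the unfolded protein response, did not differ beyond its spread, with 33.5 ± 3.90 FPKM in PR3_KO and 33.6 ± 1.20 FPKM in WT (SD, n = 3 each; limma adjusted p = 0.931).

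The 26 DNAJC genes hold the most specialised members. Of them 4 rose (15.4%, against 11.7% of all genes) and 13 fell (50%, against 41.1%), 8 without PR3_KO 1. After scaling 6 rose and 5 fell (23.1% and 19.2%, against 23.8% and 23.7% of all genes). Dnajc12, a cochaperone of the aromatic amino acid hydroxylases, had 155.63, 103.16 and 127.51 FPKM in PR3_KO 1, 2 and 3, against 74.45, 46.42 and 66.76 FPKM in WT 1, 2 and 3. PR3_KO 2 and WT 2 were the lowest of their groups, and no values overlapped. Its log2 fold change was 1.04 (SE 0.21, limma adjusted p = 0.00535) and 1.33 after scaling (limma adjusted p = 0.00516). Dnajc30, a mitochondrial DNAJ protein, had 55.56, 41.21 and 45.23 FPKM in PR3_KO libraries, against 28.97, 25.39 and 30.26 FPKM in WT libraries. All PR3_KO libraries were above all WT libraries (log2 fold change of 0.72 with an SE of 0.13, limma adjusted p = 0.00350, and 1.01 after scaling). Of its exonic bases 26.2% overlap Bud23 on the opposite strand, and whether strand was used in counting is not stated. Bud23 had 18.4 ± 1.09 FPKM in PR3_KO and 19.9 ± 0.88 FPKM in WT (SD, n = 3 each; log2 fold change -0.11).

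Dnajc13, which acts with Hspa8 on endosomes, had 28.95, 28.24 and 27.48 FPKM in PR3_KO libraries, against 23.19, 19.48 and 20.71 FPKM in WT libraries. The PR3_KO libraries lay within 2 FPKM of each other and above all WT libraries (log2 fold change of 0.40 with an SE of 0.10, limma adjusted p = 0.00963, and 0.69 after scaling). The fourth DNAJC gene that rose was the low-expressed Dnajc28 (4.44 ± 0.09 FPKM in PR3_KO and 3.06 ± 0.40 FPKM in WT, SD, n = 3 each). Its log2 fold change of 0.42 (limma adjusted p = 0.0171) was not past the threshold without PR3_KO 2 or PR3_KO 3 (limma adjusted p = 0.0527 and 0.0567). Auxilin (Dnajc6), another partner of Hspa8 in clathrin uncoating, and Dnajc4 passed only after scaling (0.55 and 0.52, limma adjusted p = 0.0252 and 0.00337), apart from Dnajc6 without WT 1 (limma adjusted p = 0.0269) and Dnajc4 with a filter of 5 FPKM (limma adjusted p = 0.0480). The abundant mitochondrial import gene Dnajc19 had 109.71, 89.51 and 105.07 FPKM in PR3_KO libraries, against 114.50, 68.14 and 109.72 FPKM in WT libraries. Apart from a low WT 2 the groups overlapped (log2 fold change 0.09, limma adjusted p = 0.728).

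**Figure D4:**
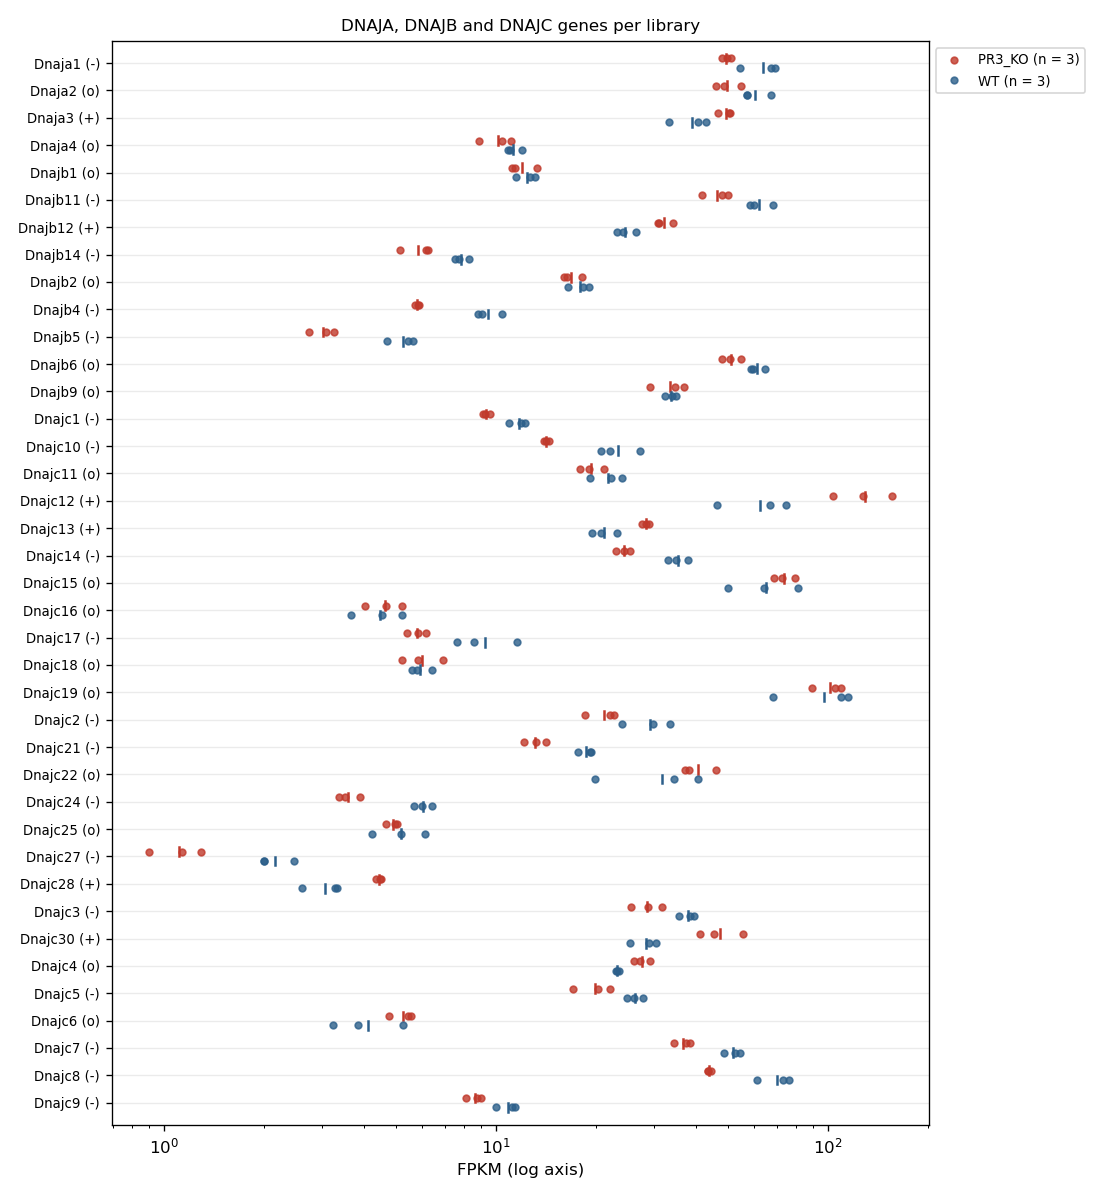
FPKM of the 39 DNAJ genes in each library on a log10 axis, grouped by class, with PR3_KO above WT in each row, points for libraries and a vertical tick at the mean of 3. Dnajc12 in PR3_KO (103.16 to 155.63 FPKM) lies right of its WT libraries (46.42 to 74.45 FPKM), and most other rows shift left or overlap.

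The 13 DNAJC genes that fell have roles from the ER to the nucleus. Dnajc10 (ERdj5), which reduces disulfide bonds in the ER, had 13.92, 14.11 and 14.44 FPKM in PR3_KO libraries, against 20.68, 27.16 and 21.96 FPKM in WT libraries. Dnajc8, found with the spliceosome, had 43.62, 44.38 and 43.40 FPKM in PR3_KO libraries, against 60.88, 76.15 and 73.21 FPKM in WT libraries. Dnajc24, which takes part in making diphthamide on elongation factor 2, had 3.51, 3.88 and 3.37 FPKM in PR3_KO libraries, against 5.64, 6.39 and 5.99 FPKM in WT libraries. All 3 genes were tightly grouped in PR3_KO and lower there than in any WT library. Their log2 fold changes were -0.67, -0.66 and -0.61 (limma adjusted p = 0.00265, 0.00262 and 0.00279) and -0.39, -0.37 and -0.37 after scaling, where they passed too. Dnajc27, with a small GTPase domain, and Dnajc14 also fell in both scalings (-0.58 and -0.52 as deposited). The other 8 were Dnajc1, Dnajc2, Dnajc3, Dnajc5, Dnajc7, Dnajc9, Dnajc17 and Dnajc21, with log2 fold changes of -0.58 (Dnajc17) to -0.30 (Dnajc1) as deposited and 0 past the threshold after scaling.

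Of these 8, Dnajc7, Dnajc17 and Dnajc21 passed with each library left out, and the others did not. Dnajc3, the ER cochaperone P58IPK, had 28.6 ± 2.97 FPKM in PR3_KO and 37.8 ± 1.90 FPKM in WT (SD, n = 3 each) and lost its call without PR3_KO 1 (limma adjusted p = 0.0588). Dnajc5, the cysteine string protein of secretory vesicles, lost it without PR3_KO 1 or WT 3 (limma adjusted p = 0.0683 and 0.0509). Dnajc2, the partner of Hspa14 at the ribosome, lost it without PR3_KO 1, PR3_KO 3, WT 1 or WT 3 (limma adjusted p = 0.0603, 0.110, 0.0725 and 0.0949). The ER gene Dnajc1 lost it without any library but WT 2 (limma adjusted p = 0.0604 to 0.0794). The histone chaperone gene Dnajc9 lost it without any library but WT 1 (limma adjusted p = 0.0636 to 0.111). The 9 DNAJC genes that were not called as deposited had log2 fold changes of -0.16 (Dnajc11) to 0.40 (Dnajc22). Dnajc22 had 38.23, 37.12 and 46.00 FPKM in PR3_KO libraries, against 40.69, 19.80 and 34.24 FPKM in WT libraries, again with WT 2 lowest.

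Set out by place of work, 7 of the 10 members listed for the ER fell and 1 rose (median -0.39, against -0.26 for all genes, of which 41.1% fell and 11.7% rose). Only 2 fell without PR3_KO 1, and 2, Hsp90b1 and Dnajc10, after scaling (20%, against 23.7% of all genes). The 1 that rose, Dnajb12, did not pass without PR3_KO 3. The ER stress element was found in 3 of the 9 listed ER members with a window, of which Hsp90b1 and Dnajc3 fell and Hspa5 was not called. The ER list may leave out ER members, and its counts hold for the list only. Dnajc16, Dnajc18 and Dnajc25 were not on it and were not called (0.05, 0.01 and -0.06). Dnajc14, also not on it, fell (-0.52). Of 8 mitochondrial members, 2 rose and 0 fell (median 0.21), with 1 that rose without PR3_KO 1, PR3_KO 2, PR3_KO 3, WT 2 or WT 3 in turn, and 2 after scaling (25%, against 23.8% of all genes). The difference between ER and mitochondrial members was not tested. Mean FPKM in PR3_KO was above that in WT for 7 of the 8 mitochondrial members, all but Dnajc11, but this rested in part on the low WT 2. Without WT 2 the log2 fold change was -0.09 for Hspd1, -0.0038 for Hspe1 and -0.15 for Dnajc19. Of 13 members known as HSF1 targets, 7 fell (53.8%, against 41.1% of all genes) and 1 rose (median -0.35), with 3 that fell without PR3_KO 1, 3 without PR3_KO 3 and 4 without WT 3. After scaling 2 fell (15.4%, against 23.7% of all genes). In that list 8 of 10 genes with a window held the 2-unit heat shock element, and they included genes that fell, such as Hspb1, and genes that were not called, such as Hspe1. Of 3 members linked to clathrin and synaptic vesicles, Dnajc13 rose and Dnajc5 fell, and Dnajc6 was not called.

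The makeup of each family was compared within libraries, which does not depend on the scaling. These ratios were chosen after the values were seen and are given with no test. Hspa8 made up 71.9%, 72.3% and 71.0% of the summed FPKM of the HSP70 and HSP110 genes in PR3_KO 1, 2 and 3, against 59.6%, 61.0% and 59.1% in WT 1, 2 and 3. The difference of 11.8 percentage points stayed between 11.4 and 12.4 with any 1 library left out. Hspa5 made up 8.27% ± 1.71 in PR3_KO and 14.6% ± 1.39 in WT (SD, n = 3 each). Within the HSP90 genes, Hsp90b1 made up 17.9%, 21.9% and 20.7% in PR3_KO libraries, against 27.8%, 32.5% and 26.9% in WT libraries. For both families the ER form thus held a smaller share in every PR3_KO library, and the main cytosolic form a larger one, with Hsp90ab1 at 65.4% ± 2.64 in PR3_KO and 54.0% ± 0.96 in WT. A share also moves when other genes of its family move. Hspa5 and Hsp90ab1 were not called themselves (limma adjusted p = 0.0787 and 0.288). Their shares therefore include the rise of Hspa8 and the lower levels of Hsp90b1 and Hsp90aa1.

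**Figure D5:**
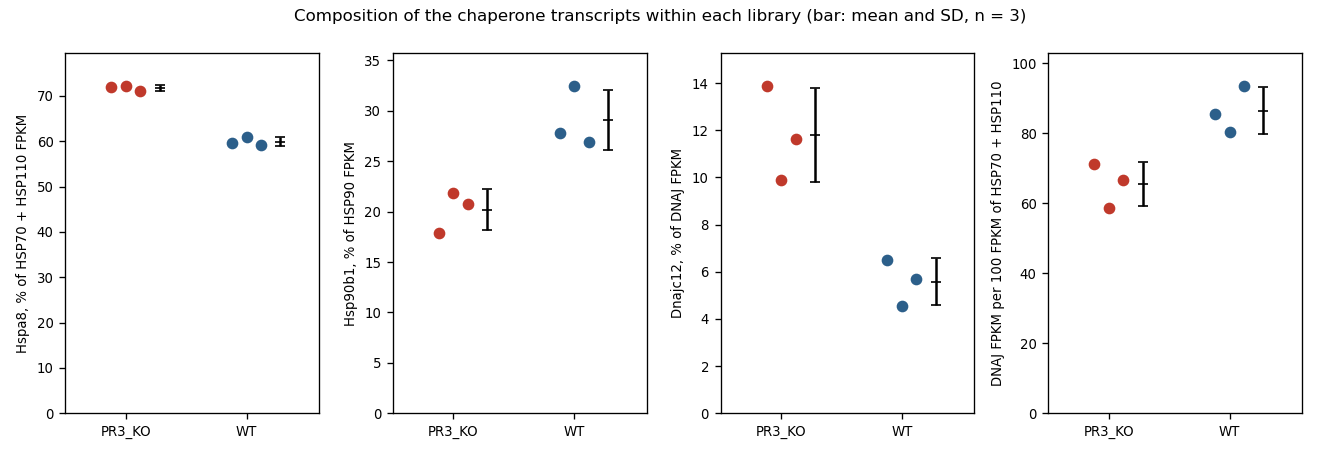
Family makeup in each library, with PR3_KO left of WT, points for libraries and whiskers for the mean and SD of 3, on axes from 0. The first 3 panels give percent of family FPKM, with Hspa8 at 71.0% to 72.3% in PR3_KO and 59.1% to 61.0% in WT, and the last gives DNAJ FPKM per 100 FPKM of HSP70 and HSP110 genes, at 58.7 to 71.2 in PR3_KO and 80.5 to 93.6 in WT.

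The ratio of cochaperones to HSP70 genes, in which Hspa8 is the largest part of the denominator, was lower in PR3_KO. Summed DNAJ FPKM per 100 FPKM of HSP70 and HSP110 genes was 71.2, 58.7 and 66.7 in PR3_KO libraries, against 85.4, 80.5 and 93.6 in WT libraries. Every PR3_KO library was below every WT library, and the difference of -21.0 stayed between -24.0 and -17.4 with any 1 library left out. The HSP70 and HSP110 genes summed to 1664 ± 103 FPKM in PR3_KO and 1288 ± 48.2 FPKM in WT. Hspa8 alone had means of 1194 FPKM in PR3_KO and 772 FPKM in WT. DNAJA, DNAJB and DNAJC genes summed to means of 158, 206 and 722 FPKM in PR3_KO, against 174, 234 and 706 FPKM in WT. The lower ratio thus includes the rise of Hspa8 and is not a separate result. Within the DNAJ genes, Dnajc12 made up 13.9%, 9.90% and 11.6% in PR3_KO libraries, against 6.50%, 4.53% and 5.71% in WT libraries. All members together summed to 3898 ± 144 FPKM in PR3_KO and 3829 ± 111 FPKM in WT (SD, n = 3 each), with overlap between the genotypes. As a share of the FPKM sum of all genes in a library, they made up 0.636%, 0.704% and 0.668% in PR3_KO libraries, against 0.755%, 0.750% and 0.708% in WT libraries. This share was lower in every PR3_KO library, but it depends on the other genes in the sum. The proximal tubule marker Kap alone held 9.52%, 8.65% and 7.15% of that sum in PR3_KO libraries, against 3.56%, 1.06% and 3.05% in WT libraries. Its part in the lower share was not tested.

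Levels varied widely among the members, from 1.46 FPKM (Hspb7) to 983 FPKM (Hspa8) as means of all 6 libraries, and the median of 19.8 FPKM lay above the 10.9 FPKM of all tested genes. All 63 members were above 0 in every library. Hspb7, Dnajc27 (1.63 FPKM) and Hspa2 (2.01 FPKM) lay just above the limit of 1 FPKM. Below it were 8 genes of the same symbols, the highest of them Hspa1l (0.79 FPKM) and Dnajb3 (0.60 FPKM), followed by Dnajb13, Hspb9, Dnajb7 and Dnajb8. Dnajc5b and Dnajc5g were listed at 0 in every library. These 8 were not tested. Exons on the opposite strand cover 44.1% of Dnaja4 (Wdr61), 30.2% of Hspb2 (Cryab), 19.0% of Hspa1a (Gm20481), 17.0% of Dnajc14 (Ormdl2) and 10.3% of Hsp90b1 (1810014B01Rik), so reads of such partners cannot be told apart from theirs if strand was not used.

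Genes that regulate or assist the members, but are not named like them, were read from the same fit. Hsf1, the heat shock transcription factor itself, had 19.1 ± 2.32 FPKM in PR3_KO and 24.1 ± 1.67 FPKM in WT (SD, n = 3 each), a log2 fold change of -0.32 (limma adjusted p = 0.0414) that was -0.04 after scaling. Its call was lost without any library but PR3_KO 2 (limma adjusted p = 0.0618 to 0.148), and Hsf1 was the 1 gene of 5 heat shock factors and their regulators that passed. Of 13 partners of HSP70, 4 rose (30.8%, against 11.7% of all genes) and 2 fell (15.4%, against 41.1%). The exchange factors Bag5 and Bag3 fell (-1.07 and -0.62, limma adjusted p = 0.000873 and 0.00415), also after scaling (-0.79 and -0.33). Bag2, and Grpel1, the exchange factor of mitochondrial HSP70, rose (0.44 and 0.39, limma adjusted p = 0.0257 and 0.0200), but Bag2 not without PR3_KO 3 or WT 1 (limma adjusted p = 0.0897 and 0.0714) and Grpel1 not without PR3_KO 1 or PR3_KO 3 (limma adjusted p = 0.0617 and 0.0726). The others that rose were Grpel2 and Sil1 (0.44 and 0.29). The number that rose was 1 without PR3_KO 1, 0 without PR3_KO 3 and 2 without PR3_KO 2, WT 2 or WT 3.

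Of 13 partners of HSP90, 5 fell (38.5%, against 41.1% of all genes) and 1 rose (7.69%, against 11.7%). The cochaperones Ptges3 (p23), Ppid, Cacybp and Sugt1 fell, at -0.68, -0.60, -0.72 and -0.48 in log2 units (limma adjusted p = 0.00113, 0.00221, 0.00258 and 0.00459), and all but Sugt1 (-0.20) also after scaling. The fifth was Chordc1 (-0.70), and Fkbp5 was the gene that rose (0.48), a call lost without PR3_KO 1, WT 1 or WT 2 in turn. Ptges3 had 41.5 ± 1.27 FPKM in PR3_KO and 66.9 ± 1.05 FPKM in WT (SD, n = 3 each). Of 14 genes of the cytosolic chaperonin TRiC and of prefoldin, which hands actin and tubulin to it, 3 fell (21.4%) and 0 rose. Vbp1 fell by 0.80 (limma adjusted p = 0.00106), while Cct7 and Pfdn4, at -0.32 and -0.30 (limma adjusted p = 0.0231 and 0.0459), were near 0 after scaling (-0.03 for each) and did not pass without PR3_KO 1, PR3_KO 2, PR3_KO 3 or WT 3, nor Pfdn4 without WT 2. The limma adjusted p was then 0.0557 to 0.0832 for Cct7 and 0.0632 to 0.132 for Pfdn4.

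Among 10 chaperones and proteases of other kinds, 5 rose (50%, against 11.7% of all genes) and 2 fell (20%, against 41.1%). Serpinh1 (HSP47), the collagen chaperone of the ER, had 44.8 ± 7.59 FPKM in PR3_KO and 88.4 ± 5.32 FPKM in WT (SD, n = 3 each; log2 fold change of -0.98 with an SE of 0.14, limma adjusted p = 0.00138). Sec63, a DNAJ-like protein of the ER translocation pore, fell by 0.60 (limma adjusted p = 0.00209). The mitochondrial genes Hscb, a DNAJ-like protein of iron-sulfur cluster assembly, and Lonp1, a protease, rose by 0.62 and 0.63 (limma adjusted p = 0.00193 and 0.00250). All 4 passed after scaling with the same sign, and Trap1, Clpb and Clpp were the others that rose (0.60, 0.41 and 0.42). The number that rose was 3 without PR3_KO 1, PR3_KO 2 or WT 3. Of 15 tested immediate early genes, whose RNA climbs within minutes of handling or stress, 0 rose and 12 fell (80%, against 41.1% of all genes). Their median was -1.04, with a mean log2(FPKM + 1) of 3.94 to 4.03 in PR3_KO and 4.76 to 5.32 in WT. Their part in the levels of stress-inducible members such as Hspa1a and Hsp90aa1 was not tested.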

How the data were processed

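Per the labels, poly(A) RNA of 3 PR3_KO and 3 WT glomerular samples was captured with oligo(dT) and read on a DNBSEQ machine. Bowtie2 and the build GRCm38.p6 were used, per the submitters' processing notes. Quantification tool, annotation and strand setting: not given in the sources used here. The deposited values are FPKM per gene, per the file headers, so counts and exact depth are unknown. FPKM scales with all mapped fragments, so abundant transcripts can lower the values of all other genes.

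Each file listed 22064 gene IDs, of which 3242 were empty in all files; of the other 18822, 18770 matched a RefSeq symbol. Tests covered the 12388 genes averaging 1 FPKM or more and were run with limma 3.58.1 (statmod 1.5.0, R 4.3.3) on log2(FPKM + 1), with genotype as the only term, trend and robust moderation, and Benjamini-Hochberg adjustment over all of them (threshold 0.05). The log2 scale with a pseudocount of 1 understates changes of low genes. The fit was tested on simulated data. The SE is limma's, and SDs are over 3 libraries. Median-of-ratios scaling divided each library by its size factor. Other alternatives were a pseudocount of 0.1, no filter, a mean of at least 5 FPKM, no trend or robust moderation, the replicate number as a block, each library left out, and WT 2 with PR3_KO 3 left out. Promoter windows and their coordinates are from RefSeq. Gene overlaps were read from GENCODE exons. Python 3.11.15, pandas 2.3.3, numpy 2.4.6 and matplotlib 3.10.9 were used.

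The members and gene lists were chosen with earlier results of these data known. Every member may be named. Values in every library are given for the most abundant member of each family, for up to 3 members per family and direction with the smallest adjusted p, and for a set of 14 well-known members. From each other list up to 4 genes with the smallest adjusted p are named. Genes named beyond this were chosen after their values were seen.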

Additional observations from a re-analysis of the deposited data

How the results depend on the processing

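Median-of-ratios scaling gave 2951 genes that rose and 2931 that fell, and 10 members that fell, with a members' median of -0.0096. A pseudocount of 0.1 gave a median of -0.30. With 1 library left out, 917 to 1514 genes and 5 to 9 members rose and 15 to 26 members fell. The scaling turned the sign of Hsp90ab1 (0.13), Hspa4l (0.24), Dnajc11 (0.12), Dnajb6 (0.04), Dnajb9 (0.27), Dnaja2 (0.0185), Dnajb2 (0.20), Dnaja4 (0.12), Hspb2 (0.0576), Dnajc25 (0.19), Hspb11 (0.11) and Dnajb1 (0.22), since it shifts all genes upward by about the same amount. Without WT 2 and PR3_KO 3, Hsph1 (-0.05), Hspd1 (-0.07), Hspa4l (0.01), Dnajc16 (-0.01), Hspb7 (0.0117), Dnajc19 (-0.18), Hspb2 (0.0142) and Dnajc18 (-0.04) changed sign, for which the cause was not tested. With 1 library left out, the log2 fold change ran from -0.0774 to 0.11 for Hsph1, -0.0918 to 0.33 for Hspd1, -0.0038 to 0.36 for Hspe1, -0.0924 to 0.0340 for Hspa4l, -0.0607 to 0.15 for Dnajc16, -0.0812 to 0.0809 for Dnajb9, -0.15 to 0.22 for Dnajc19, -0.17 to 0.0511 for Dnajc25, -0.0884 to 0.0864 for Dnajc18, -0.37 to -0.0236 for Hspb7 and -0.39 to -0.0345 for Hspb2, the last 2 without a change of sign. None of these was past the threshold as deposited.

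Whether replicate numbers pair the libraries is not stated in the labels. Deviations of same-numbered libraries from their group means correlated at 0.068, 0.27 and -0.087, and those of differently numbered libraries at -0.26 to 0.322. With 3 libraries a genotype these values cannot settle it. With the number as a block, 8 members rose and 29 fell, and Hspa5, Hspa12a and Hspb8 were gained and Hsp90aa1 lost. As the files hold no counts, counting error of low members such as Hspa1a and Dnajb5 is unknown, and the 3 libraries a genotype limit what is called.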
